A study of Homo sapiens with 6 samples.

Results

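Expression was examined for 40 human genes of the lysosome: the subunits of the vacuolar proton pump (V-ATPase), the lysosomal hydrolases, the proteins of the lysosomal membrane, the receptors that deliver the hydrolases, and the transcription factor TFEB. Each gene was read through the probe sets whose only gene symbol in the platform's annotation table was that gene. In this way 38 of the 40 genes were measured, of 19775 genes with such a probe set in all, on 95 of the 54675 probe sets of the array. ATP6V1F, a subunit of the pump, and GLB1, the lysosomal beta-galactosidase, were read only by probe sets that carry several symbols and have no value here. After probe sets in the dimmer part of the table were left out, 27307 probe sets remained, among them 78 of the 95, and each of the 38 measured genes kept at least 1. A gene is represented below by its brightest remaining probe set unless another is named.

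The RNA came from human kidney cells in culture and was read on 6 1-colour oligonucleotide arrays, 1 per sample. All cells had been transfected. Of the arrays, 2 carried RNA of cells given a construct labelled hIMP1 wt, 2 of cells given a construct labelled hIMP1 Dmut, and 2 of cells given an empty vector, the mock group. IMP1, encoded by IGF2BP1, is an RNA-binding protein that accompanies selected mRNAs in the cytoplasm. The labels leave the cell line and the meaning of Dmut unnamed. They also leave unsaid whether the 2 arrays of a group came from separate cultures, so the spread behind each p-value is that between arrays and may be technical. The sample titles also carry a number, 1 or 2, that crosses the 3 groups. The labels do not say what the number stands for.

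The lysosome is the acidic compartment in which cells break down proteins, glycans and lipids. The V-ATPase acidifies it: its cytosolic V1 sector splits ATP and turns a rotor that drives protons through the V0 sector in the membrane. Most soluble hydrolases are tagged with mannose 6-phosphate in the Golgi and carried to the lysosome by the mannose 6-phosphate receptors, and many of the genes involved carry an E-box element that TFEB binds when it enters the nucleus. Epithelial cells of the kidney's proximal tubule are rich in lysosomes, which break down the proteins that they take up.

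The sequence around the annotated start was available for 31 of the 40 genes in a RefSeq promoter table (build GRCh38.p14), from 250 bases before to 50 bases after the start. The motif TCACGTG, the core of the E-box that TFEB-family factors are known to bind, was searched on both strands. Where matches on the 2 strands overlap, as they do in TCACGTGA, they were counted as a single site. It was present in 9 of the 31 promoters (29.0%), against 3.71% of all 35116 promoters in the table. With the shorter motif CACGTG the counts were 10 of 31 (32.3%) and 7.26%. Members were counted with 1 promoter a gene. The shares over the table count every entry, whether or not its gene was measured here. Promoters are shown first for 4 genes that hold the motif: LAMP1, which had 6 sites, GAA and MCOLN1, with 2 each, and ATP6V0D1, with 1. GLA and ATP6V0A2 are shown beside them because they differed most between the array numbers in the results below. Each sequence is written 5′ to 3′ on the strand of its gene, with matches to TCACGTG on either strand in capitals and the rest in lower case.
LAMP1 (chr13:113296989-113297288, plus strand): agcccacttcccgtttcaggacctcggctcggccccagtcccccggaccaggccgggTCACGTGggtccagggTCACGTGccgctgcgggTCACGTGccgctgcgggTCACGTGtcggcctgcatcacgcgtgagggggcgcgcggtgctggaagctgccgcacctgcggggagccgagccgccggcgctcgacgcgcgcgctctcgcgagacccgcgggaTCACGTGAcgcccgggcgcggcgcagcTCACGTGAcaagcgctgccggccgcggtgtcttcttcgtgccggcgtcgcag
GAA (chr17:80101331-80101630, plus strand): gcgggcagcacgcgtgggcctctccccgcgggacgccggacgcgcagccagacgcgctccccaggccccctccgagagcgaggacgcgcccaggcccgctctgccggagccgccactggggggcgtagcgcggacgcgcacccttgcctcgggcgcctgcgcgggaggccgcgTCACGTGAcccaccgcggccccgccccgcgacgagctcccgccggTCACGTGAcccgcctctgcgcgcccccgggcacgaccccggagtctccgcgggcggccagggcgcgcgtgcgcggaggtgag
MCOLN1 (chr19:7522374-7522673, plus strand): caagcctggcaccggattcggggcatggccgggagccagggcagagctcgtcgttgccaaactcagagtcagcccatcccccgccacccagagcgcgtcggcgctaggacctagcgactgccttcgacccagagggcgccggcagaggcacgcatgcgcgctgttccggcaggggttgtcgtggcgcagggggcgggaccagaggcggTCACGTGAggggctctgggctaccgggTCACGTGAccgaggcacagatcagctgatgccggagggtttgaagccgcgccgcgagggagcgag
ATP6V0D1 (chr16:67481108-67481407, minus strand): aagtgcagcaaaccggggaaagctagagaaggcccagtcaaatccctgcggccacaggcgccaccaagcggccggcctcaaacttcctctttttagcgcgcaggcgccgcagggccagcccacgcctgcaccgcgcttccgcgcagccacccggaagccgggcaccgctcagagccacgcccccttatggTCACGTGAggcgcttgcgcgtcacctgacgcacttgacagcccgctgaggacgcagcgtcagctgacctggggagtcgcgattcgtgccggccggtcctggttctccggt
GLA (chrX:101407876-101408175, minus strand): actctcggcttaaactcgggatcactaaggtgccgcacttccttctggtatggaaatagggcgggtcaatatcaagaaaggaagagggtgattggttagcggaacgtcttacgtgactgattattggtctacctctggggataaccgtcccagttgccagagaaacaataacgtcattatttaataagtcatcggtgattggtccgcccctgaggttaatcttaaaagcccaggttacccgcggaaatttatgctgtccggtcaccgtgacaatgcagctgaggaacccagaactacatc
ATP6V0A2 (chr12:123712103-123712402, plus strand): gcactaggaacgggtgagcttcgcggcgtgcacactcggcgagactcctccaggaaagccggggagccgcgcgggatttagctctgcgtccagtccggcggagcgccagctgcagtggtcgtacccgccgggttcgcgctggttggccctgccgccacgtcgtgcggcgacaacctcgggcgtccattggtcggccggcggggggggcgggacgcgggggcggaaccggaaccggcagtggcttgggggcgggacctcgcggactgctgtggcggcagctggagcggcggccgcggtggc

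In these windows the LAMP1 promoter carried 4 sites in a row, with centres between 189 and 139 bases before the start, and 2 more near the start itself. The other genes with a site were ATP6V0B and CTSA, with 2 each, IGF2R, with 3, and ATP6V1G1 and CTSD, with 1 each. Of the 20 sites, 14 had their centre within the 100 bases before the start. GLA and ATP6V0A2 had 0 matches in these windows, as had the promoters of NPC2, LIPA and TPP1. No promoter was available for HEXA, the other gene that passed between the array numbers below. Only 9 of the 31 promoters hold a site, so lacking one is common among these genes. A match is a description of the letters, and a window without one says only that these letters are not in it.

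**Figure D1:**
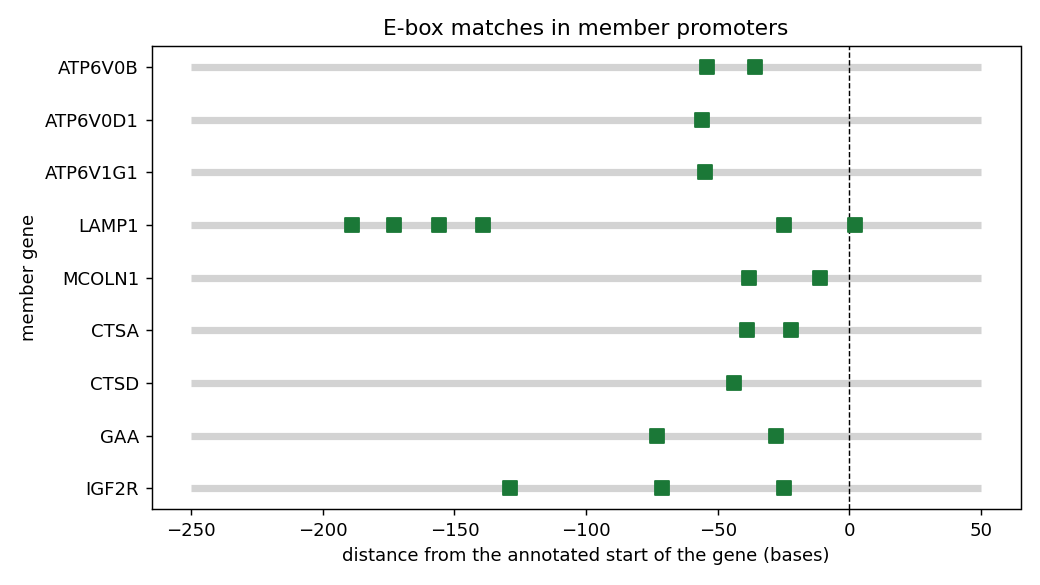
Position of each TCACGTG site, on either strand, in the 9 member promoters that hold one, in bases from the annotated start (dashed line); grey bars show the window searched, and green squares the centres of the sites. LAMP1 holds 6 of the 20 sites, and 14 of the 20 lie within 100 bases before the start.

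Markers of kidney epithelium were present in part. KRT18, a keratin of simple epithelia, had intensities between 1149 and 1356, VIM, an intermediate filament of many cultured cells, between 5279 and 6611, and PAX8, a factor of the kidney lineage, between 148 and 287. PAX2, another kidney factor, and CDH16, the kidney cadherin, were among the dim probe sets left out, and 9 of the 12 kidney markers with a probe set remained. Of the macrophage markers, whose cells are rich in lysosomes, 3 of 9 remained. These were CSF1R (23.2 to 44.5), ITGAM (16.9 to 53.5) and FCER1G (14.6 to 41.2), and CD14, left out, lay between 0.649 and 1.95. The sum over the macrophage list was 153 to 198 with hIMP1 wt, 161 to 166 with hIMP1 Dmut and 110 to 146 in mock. In this sum of low intensities every construct array was above both mock arrays, a difference that was not tested. The members of the list did not move together. CD163, left out by the filter, had 17.6 to 21.6 on the construct arrays and 0.559 to 1.30 in mock. FCER1G was lower with hIMP1 Dmut, at 14.6 to 21.6, than in mock, at 27.5 to 37.1. Median intensities of the 6 arrays lay between 26.7 and 33.7. IGF2BP1, the gene of the transfected constructs, had 2 remaining probe sets. At 1 of them its intensities were 137 and 253 with hIMP1 wt on the arrays numbered 2 and 1, 150 and 248 with hIMP1 Dmut, and 93.2 and 188 in mock, so each construct array was above the mock array of its number. The log2 changes of 0.46 ± 0.39 with hIMP1 wt and 0.51 ± 0.39 with hIMP1 Dmut did not pass (adjusted p = 1, limma). With the number as a replicate block the errors were 0.19 and the unadjusted p-values 0.0323 and 0.0194, with an adjusted p of 1 in that limma fit. At the other probe set IGF2BP1 changed by 0.03 ± 0.25 and 0.05 ± 0.25, and the files do not say whether these probe sets read the constructs. Across the 27307 probe sets, the correlation was between 0.970 and 0.980 for pairs of arrays that shared a number and between 0.963 and 0.964 for the pairs that shared a group. For pairs that shared neither it was between 0.960 and 0.968, so arrays of a group were no more alike than these.

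The first question was whether lysosomal genes differed when cells received either construct in place of the empty vector. None of the 38 genes passed the test with hIMP1 wt or with hIMP1 Dmut, and none had an unadjusted p under 0.05, against 0.856% and 1.34% of all 12269 genes measured. Both shares are below 0.05, the share that would be reached if no gene differed, so this fit is conservative. It holds no term for the array number, so differences between the numbers add to the spread within groups and widen the intervals. A lack of small p-values here does not show that these genes were unchanged. The hydrolase GUSB was lower on all 4 construct arrays than on both mock arrays, a pattern that was not counted over all genes. LAMP2, a membrane protein, and MCOLN1, a calcium channel, had the largest changes with hIMP1 Dmut without passing. Changes are on the scale log2(intensity + 9.05), an offset that makes changes of dim probe sets smaller, and were tested with limma over all 27307 probe sets with Benjamini-Hochberg adjustment at 0.05. Among all genes 0.00815% passed with hIMP1 wt and 0.00815% with hIMP1 Dmut, so 0 of 38 genes is near the background. The arrays read bulk RNA, in which fewer cells of a type and less RNA per cell cannot be told apart. Both comparisons use the same mock arrays, so their values are not independent of each other.

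With hIMP1 wt, 17 of the 38 genes were above mock and 21 below it. With arrays scaled to the same median 24 were above and 14 below, and the median of all probe sets was then 0.03. The median change was -0.01, as it was over all genes measured (-0.01), and the changes lay between -0.23 and 0.20. The intensities of the 2 groups did not overlap for 1 gene that was higher, ATP6V0E1 (8.67% of all genes), and for 1 that was lower, GUSB (11% of all genes). The 95% intervals of all 38 genes included 0. For 37 genes the whole interval lay within 2-fold of mock in either direction, and for 22 within 1.5-fold. The exception at 2-fold was ATP6V0A2, with an interval between -0.70 and 1.07.

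With hIMP1 Dmut, 15 genes were above mock and 23 below it, or 10 and 28 with median scaling, where the median of all probe sets was -0.05. The median change was -0.09, against -0.01 over all genes, and the changes lay between -0.42 and 0.50. Within the arrays numbered 2 the median was -0.16 and within those numbered 1 it was -0.03. Without the mock array numbered 2 it was -0.01, and without the mock array numbered 1 it was -0.18. The groups did not overlap for 1 higher gene, ATP6AP1 (11.2% of all genes), and for 7 lower genes (12% of all genes): ATP6V0A1, ATP6V1D, ATP6V1E1, ATP6V1H, CD63, MCOLN1 and GUSB. These 7 are 18.4% of the 38 genes, and none of them passed. The interval of each gene included 0, and it lay within 2-fold for 34 genes, the exceptions being ATP6V0A2, LAMP2, MCOLN1 and TFEB.

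Set directly against each other, hIMP1 wt was above hIMP1 Dmut for 25 of the 38 genes and below it for 13, or for 31 and 7 with median scaling, where the median of all probe sets was 0.08. The median difference was 0.05, against -0.01 over all genes. Among arrays of 1 number it was 0.16 for number 2 and 0.02 for number 1, and it was 0.15 without the hIMP1 wt array numbered 1. No gene passed, and among all genes 0% did in the limma fit. At an unadjusted p under 0.05 there were 0 of the 38 genes and 124 of the 12269 (1.01%), again a share below 0.05. The intensities did not overlap for 8 genes that were higher with hIMP1 wt (8.75% of all genes) and for 2 that were lower (12% of all genes). The 8 were ATP6V0B, ATP6V1B2, ATP6V1E1, ATP6V1H, MCOLN1, GUSB, PSAP and M6PR, and the 2 were LAMP2 and CTSZ.

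**Figure D2:**
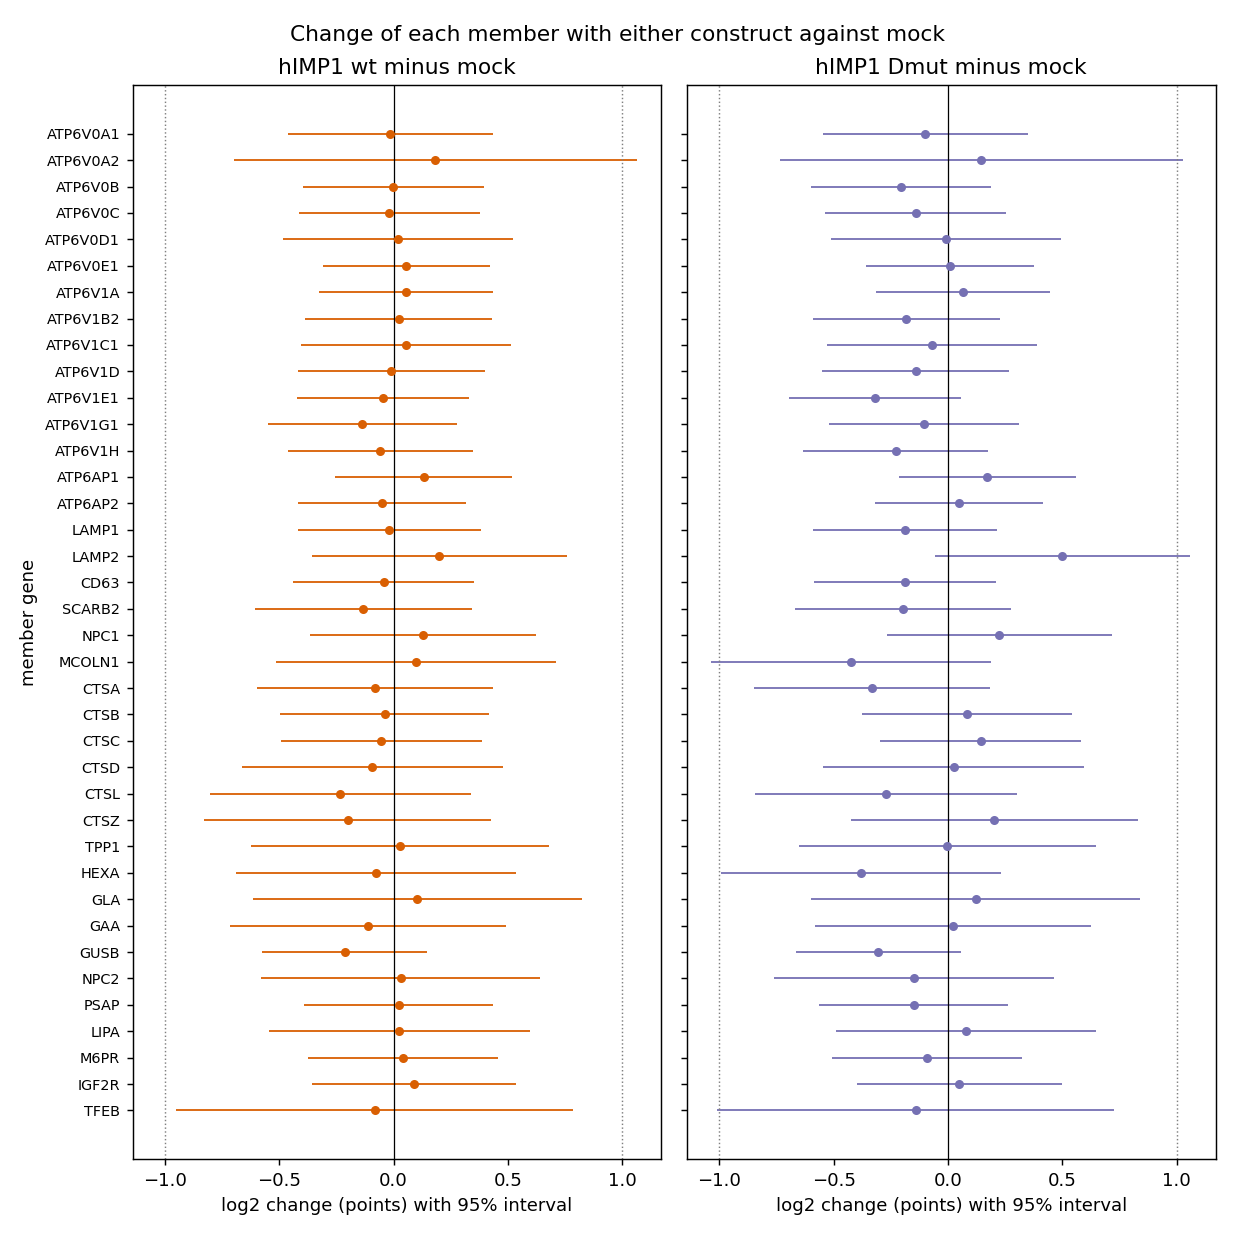
Log2 change of each of the 38 genes with hIMP1 wt (left panel) and hIMP1 Dmut (right panel) against mock; points are fitted changes, bars are 95% intervals, and dotted lines mark 2-fold. Every interval includes 0, and the changes lie between -0.23 and 0.20 with hIMP1 wt and between -0.42 and 0.50 with hIMP1 Dmut.

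Among the V0 genes, which encode the proton channel in the membrane, 3 of 6 were above mock with hIMP1 wt and 2 of 6 with hIMP1 Dmut. ATP6V0D1, the subunit that links the rotor to V1, had intensities of 720 and 815 with hIMP1 wt on the arrays numbered 2 and 1, 602 and 934 with hIMP1 Dmut, and 707 and 806 in mock. The 3 groups overlapped, and the array of each group numbered 2 was below its partner. The log2 change was 0.02 ± 0.23 (SE) with hIMP1 wt and -0.01 ± 0.23 with hIMP1 Dmut, and both signs turned when single arrays were left out. ATP6V0B and ATP6V0C, which form the proton-carrying ring, changed by -0.001 ± 0.18 and -0.02 ± 0.18 with hIMP1 wt and by -0.20 ± 0.18 and -0.14 ± 0.18 with hIMP1 Dmut. Their low hIMP1 Dmut mean came from the array numbered 2, at 1356 for ATP6V0B against 1731 on the array numbered 1, and at 1358 for ATP6V0C against 1751. The other remaining probe set of ATP6V0C had the opposite sign, at 0.03 with hIMP1 wt and 0.18 with hIMP1 Dmut. ATP6V0A1, ATP6V0A2 and ATP6V0E1 complete the sector, and their 6 changes against mock lay between -0.10 and 0.18.

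V1 genes encode the part that splits ATP, and 3 of the 7 measured were above mock with hIMP1 wt and 1 of 7 with hIMP1 Dmut. ATP6V1A, the catalytic subunit, had intensities of 1704 and 1476 with hIMP1 wt, 1497 and 1710 with hIMP1 Dmut, and 1521 and 1534 in mock, each pair in the order 2 and 1. The mock arrays lay between the 2 arrays of each construct. ATP6V1E1, part of the stalk that holds V1 in place, had 1041 and 938 with hIMP1 wt, 790 and 843 with hIMP1 Dmut, and 1030 and 1012 in mock. Both hIMP1 Dmut arrays were below the 4 others. The log2 change of ATP6V1E1 was -0.32 ± 0.17 with hIMP1 Dmut against mock (unadjusted p = 0.0872, adjusted p = 1, limma) and -0.05 ± 0.17 with hIMP1 wt. ATP6V1H, a regulatory subunit, was also below mock on both hIMP1 Dmut arrays, at 438 ± 24.9 with hIMP1 Dmut (SD, n = 2) and 514 ± 18 in mock, a log2 change of -0.23 ± 0.18 that did not pass. Of the 2 accessory proteins, ATP6AP1 had 1052 and 1261 with hIMP1 wt, 1164 and 1207 with hIMP1 Dmut, and 1084 and 1019 in mock, in the order 2 and 1. Both hIMP1 Dmut arrays were above both mock arrays, and the hIMP1 wt arrays overlapped with them. Its changes were 0.13 ± 0.17 and 0.17 ± 0.17. ATP6AP2, also known as the prorenin receptor, changed by -0.05 ± 0.17 and 0.05 ± 0.17.

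Of the lysosomal membrane genes, 3 of 6 were above mock with hIMP1 wt and 2 of 6 with hIMP1 Dmut. LAMP1 and LAMP2 encode the abundant glycoproteins that line the inner face of the membrane. LAMP1 had intensities of 2355 and 2133 with hIMP1 wt, 1813 and 2191 with hIMP1 Dmut, and 2488 and 2073 in mock, in the order 2 and 1. The groups overlapped, and the changes were -0.02 ± 0.18 with hIMP1 wt and -0.19 ± 0.18 with hIMP1 Dmut. LAMP2 had 913 and 1066 with hIMP1 wt, 1380 and 1074 with hIMP1 Dmut, and 662 and 1111 in mock. Its change of 0.50 ± 0.25 with hIMP1 Dmut (adjusted p = 1) rested on the arrays numbered 2, where it was 1.05, against -0.05 on those numbered 1. Its 3 other probe sets changed by -0.10, 0.07 and 0.15 in that comparison. For hIMP1 wt against mock LAMP2 changed by 0.20 ± 0.25, and by -0.17 without the mock array numbered 2.

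MCOLN1, the channel through which calcium leaves the lysosome, had 92.3 and 116 with hIMP1 wt, 61.9 and 77.7 with hIMP1 Dmut, and 97.5 and 94.8 in mock. Both hIMP1 Dmut arrays were below the 4 others. Its difference of 0.52 ± 0.27 between hIMP1 wt and hIMP1 Dmut was 0.52 on the arrays numbered 2 and 0.53 on those numbered 1, and it did not pass (unadjusted p = 0.0874, adjusted p = 1, limma). Against mock the hIMP1 Dmut change was -0.42 ± 0.27. MCOLN1 was read by a single probe set. CD63, a tetraspanin, and SCARB2, the receptor that carries beta-glucocerebrosidase, changed by -0.19 and -0.20 with hIMP1 Dmut, and NPC1, which exports cholesterol, by 0.22. The 3 other remaining probe sets of SCARB2 went the other way, by 0.06 to 0.40. None of these passed.

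Among the proteases, 1 of 7 was above mock with hIMP1 wt and 4 of 7 with hIMP1 Dmut. CTSD, the aspartic protease cathepsin D, had 116 and 173 with hIMP1 wt, 148 and 161 with hIMP1 Dmut, and 148 and 155 in mock. The spread within hIMP1 wt was wider than the distance between the groups, and the changes were -0.09 ± 0.26 and 0.02 ± 0.26. CTSL, a cysteine protease, had 485 and 371 with hIMP1 wt, 467 and 366 with hIMP1 Dmut, and 627 and 399 in mock. In each group the array numbered 2 was the higher, and the change of -0.23 ± 0.26 with hIMP1 wt became 0.09 without the mock array numbered 2. CTSZ, an exopeptidase, had 73.7 and 67.6 with hIMP1 wt, 107 and 86.7 with hIMP1 Dmut, and 72.6 and 93.5 in mock. Its hIMP1 wt arrays were both below its hIMP1 Dmut arrays, a difference of -0.40 ± 0.28 that did not pass.

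Of the glycosidases, 1 of the 4 measured was above mock with hIMP1 wt and 2 of 4 with hIMP1 Dmut. GUSB, the beta-glucuronidase, had 1454 and 1324 with hIMP1 wt, 1283 and 1321 with hIMP1 Dmut, and 1603 and 1617 in mock. All 4 construct arrays were below both mock arrays, and the share of all genes with this pattern was not counted. The change was -0.21 ± 0.16 with hIMP1 wt (unadjusted p = 0.218) and -0.31 ± 0.16 with hIMP1 Dmut (unadjusted p = 0.0892), both with an adjusted p of 1 in the limma fit. Within the arrays numbered 2 these changes were -0.14 and -0.32, and within those numbered 1 they were -0.29 and -0.29. Of the genes for lipid breakdown, PSAP, the precursor of the saposins that present sphingolipids to their hydrolases, changed by 0.02 ± 0.19 and -0.15 ± 0.19. NPC2, which hands cholesterol to NPC1, changed by 0.03 ± 0.27 and -0.15 ± 0.27, and LIPA, the acid lipase, by 0.03 ± 0.26 and 0.08 ± 0.26.

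The mannose 6-phosphate receptors M6PR and IGF2R changed by 0.04 ± 0.19 and 0.09 ± 0.20 with hIMP1 wt and by -0.09 ± 0.19 and 0.05 ± 0.20 with hIMP1 Dmut. TFEB was dim, at 31.5 and 39.5 with hIMP1 wt, 38.9 and 28.8 with hIMP1 Dmut, and 28 and 50.5 in mock. The mock arrays enclosed the 4 others. Its changes were -0.08 ± 0.39 and -0.14 ± 0.39, and both were above 0, at 0.26 and 0.20, without the mock array numbered 1.

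**Figure D3:**
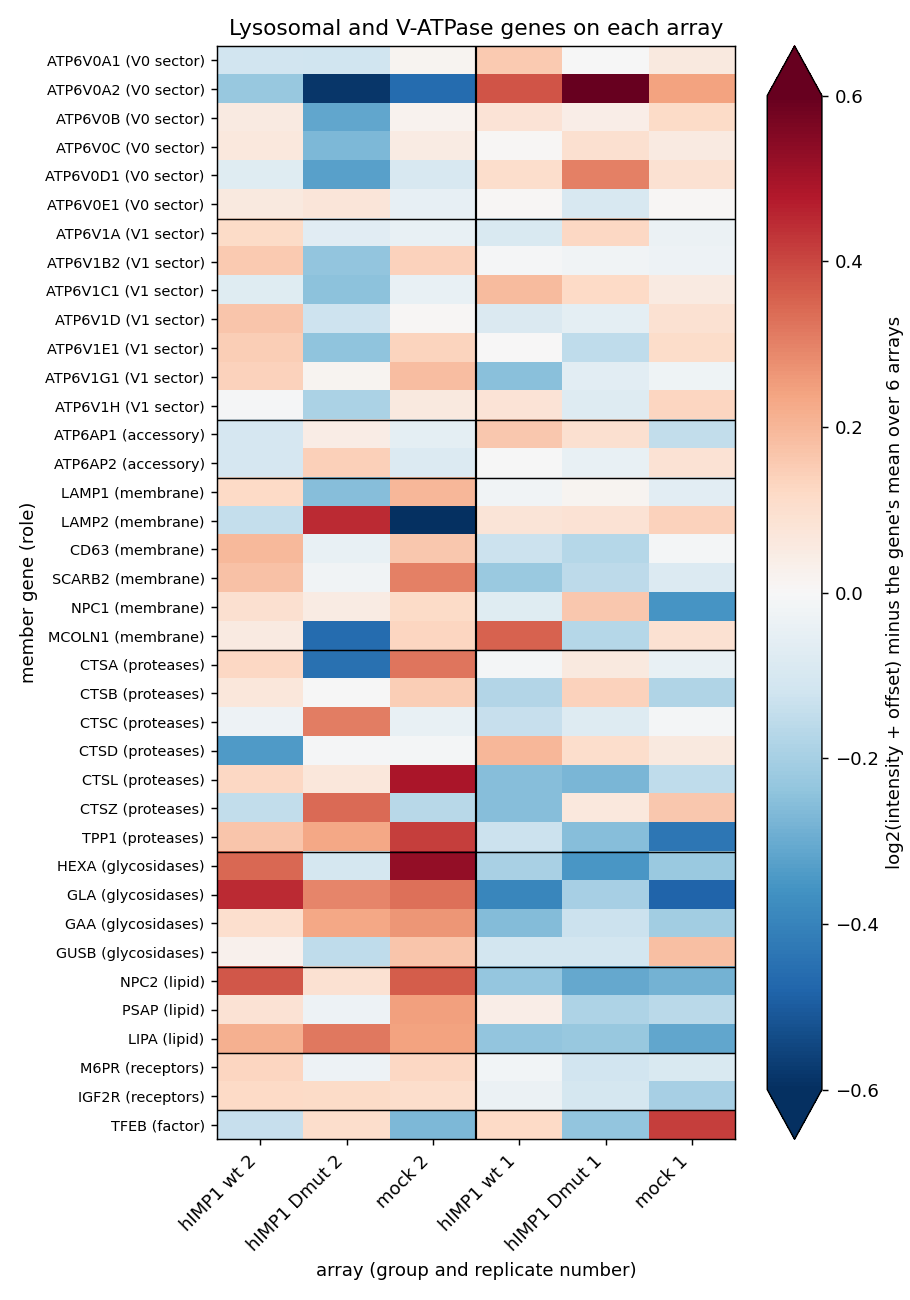
Log2 intensity (plus the offset) of each of the 38 genes on each array, minus the gene's mean over the 6 arrays, by role; red is above the mean and blue below, with arrays numbered 2 on the left and 1 on the right of the vertical line. The glycosidase and lipid rows are mostly red on the arrays numbered 2, and V-ATPase rows are mostly blue on the hIMP1 Dmut array numbered 2.

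The second comparison set the arrays numbered 2 against those numbered 1, with the group as a term, to show how far these genes vary between arrays of the same group. Here 6 of the 38 genes passed. GLA, LIPA, NPC2, HEXA and TPP1 were higher on the arrays numbered 2, and ATP6V0A2 was lower. The 5 higher genes encode soluble proteins of the lysosome's interior: GLA is the alpha-galactosidase, HEXA the alpha subunit of beta-hexosaminidase, TPP1 a tripeptidyl peptidase, LIPA the acid lipase and NPC2 a cholesterol-binding protein. ATP6V0A2 encodes an isoform of the V0 a subunit that is found in the Golgi and endosomes. The 6 genes are 15.8% of the 38, against 6.19% of all 12269 genes. Of all genes 3.71% were called higher and 2.49% lower. The numbers did not overlap for 10 of the 38 genes that were higher (26.3%, against 17.4% of all genes) and for 4 that were lower (10.5%, against 13.1%). Over probe sets, 9 of 78 passed (11.5%), against 5.71% of all 27307.

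GLA had intensities of 2741 with hIMP1 wt, 2461 with hIMP1 Dmut and 2530 in mock on the arrays numbered 2, and of 1531, 1748 and 1435 in the same order on the arrays numbered 1. The numbers did not overlap. The difference was 0.71 ± 0.12 (SE, adjusted p = 0.00797, limma), or 1.64-fold, and it was 0.84, 0.49 and 0.81 within hIMP1 wt, hIMP1 Dmut and mock. LIPA had 1482, 1589 and 1507 on the arrays numbered 2, against 1082, 1088 and 1027 on those numbered 1. Its 3 groups gave much the same difference, 0.45, 0.54 and 0.55, with 0.51 ± 0.11 overall (adjusted p = 0.021). NPC2 had 945, 776 and 938, against 620, 587 and 597. It too kept the numbers apart, by 0.55 ± 0.12 (adjusted p = 0.0211). HEXA averaged 742 ± 162 on the arrays numbered 2 and 509 ± 29.3 on those numbered 1 (SD, n = 3 each), and TPP1 487 ± 45.1 and 332 ± 36. Their differences were 0.51 ± 0.13 (adjusted p = 0.0387) and 0.54 ± 0.14 (adjusted p = 0.0411).

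ATP6V0A2 had 240, 186 and 203 on the arrays numbered 2, against 370, 451 and 336 on those numbered 1, again with hIMP1 wt, hIMP1 Dmut and mock in that order. The numbers did not overlap, and the difference was -0.85 ± 0.15 (adjusted p = 0.0125, limma). It was -0.60, -1.24 and -0.70 within the 3 groups. At its other remaining probe sets ATP6V0A2 differed by 0.25 and -0.36, and neither passed, so a single probe set carries its call. CTSL, at 0.45 ± 0.12, came close without passing (adjusted p = 0.0527).

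**Figure D4:**
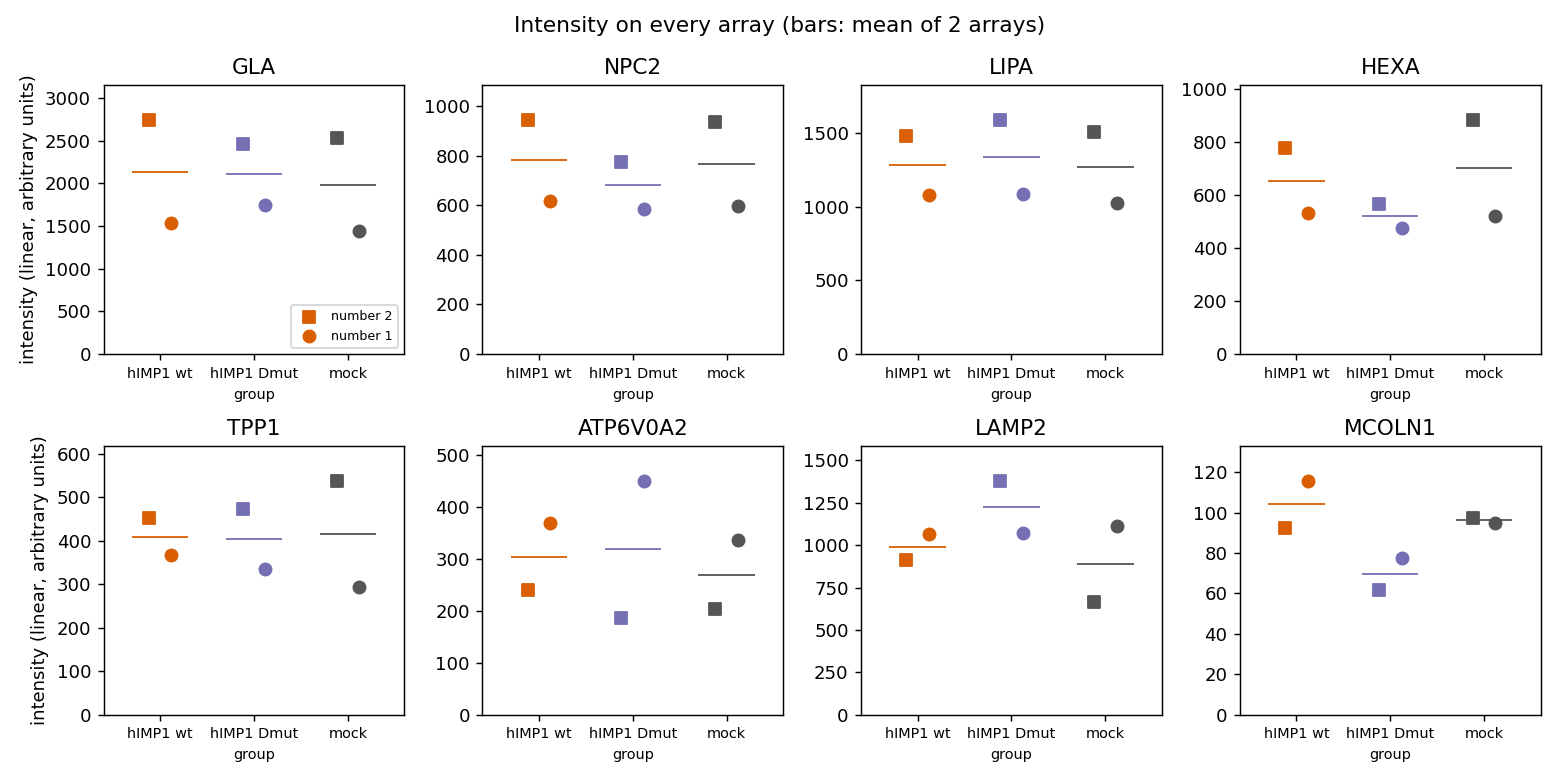
Intensity on every array (linear scale, arbitrary units) of the 6 genes that passed for the array number and of LAMP2 and MCOLN1, by group; squares are arrays numbered 2, circles arrays numbered 1, and bars the mean of 2 arrays. In all 3 groups the squares lie above the circles for GLA, NPC2, LIPA, HEXA and TPP1 and below them for ATP6V0A2, while for MCOLN1 both hIMP1 Dmut arrays lie below the others.

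By role, the soluble proteins were mostly higher on the arrays numbered 2 and the V0 sector of the pump mostly lower. Of the 14 measured proteases, glycosidases and lipid-handling proteins, 12 were higher on the arrays numbered 2 and 5 passed, with a median difference of 0.30. Of the 15 V-ATPase genes, 6 were higher and 9 lower, 1 passed, and the median was -0.07. The V0 sector had 1 of 6 higher (median -0.15), the V1 sector 5 of 7 (median 0.03) and the accessory proteins 0 of 2 (median -0.05). The median over all genes was 0.02. For 8 of the 14 soluble genes the difference was above 0 in each of the 3 groups, and for 1 of the 15 V-ATPase genes, against 24.7% of all genes. It was below 0 in each group for 1 of 14 and 6 of 15, against 19.7% of all genes. These counts are descriptions, and the difference between the roles was not tested. With arrays scaled to the same median, 8 V-ATPase genes were higher and 7 lower. The V-ATPase median became 0.01 and the soluble median 0.38, while the median of all probe sets moved to 0.07.

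The membrane genes and receptors had 6 of 9 higher, TFEB counted with them, and 0 passed. SCARB2 differed by 0.31 ± 0.12, IGF2R by 0.23 ± 0.12 and CD63 by 0.21 ± 0.11, and their adjusted p-values lay between 0.145 and 0.288. The other remaining probe sets of SCARB2, between -0.15 and -0.10, and that of IGF2R, at -0.07, had the opposite sign. LAMP1 differed by 0.04 ± 0.13 at its brightest probe set, CTSD by -0.24 ± 0.17, ATP6V0D1 by -0.33 ± 0.13 (adjusted p = 0.144), ATP6V1A by 0.001 ± 0.12 and TFEB by -0.20 ± 0.32. The numbers did not overlap for ATP6V0D1 and CTSD, and none of these 5 genes passed the test.

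**Figure D5:**
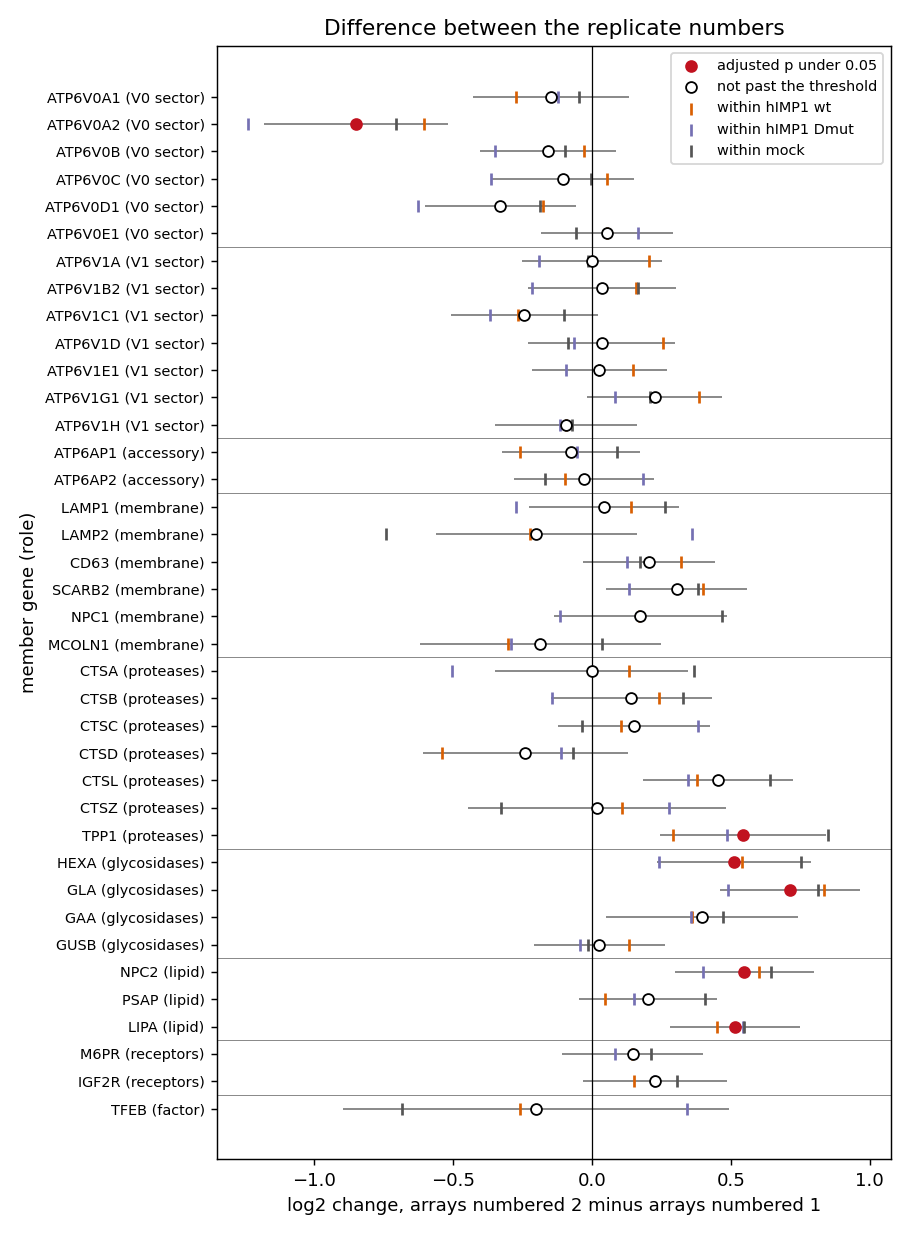
Log2 difference between the arrays numbered 2 and those numbered 1 for each of the 38 genes, by role; circles are fitted differences (filled where the adjusted p is under 0.05), bars are 95% intervals, and ticks are the differences within hIMP1 wt, hIMP1 Dmut and mock. The filled circles are GLA, LIPA, NPC2, HEXA and TPP1 on the right of 0 and ATP6V0A2 on the left.

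These calls depended on single groups of arrays. Without either hIMP1 wt array only ATP6V0A2 of the 6 still passed, and GLA had an adjusted p of 0.0781 or 0.0859. Without either mock array GLA and ATP6V0A2 passed, and without either hIMP1 Dmut array 11 genes did, all 6 among them. When the variance prior had no intensity trend, 0 genes passed, as did 0 of the 27307 probe sets, with 8 of the 38 genes and 5076 probe sets at an unadjusted p under 0.05. The ratio of 3′ to 5′ signal at the ACTB control probe sets, a sign of RNA integrity, was between 1.57 and 1.67 on the arrays numbered 2 and between 1.44 and 1.52 on those numbered 1. At GAPDH it was between 1.13 and 1.17 and between 1.03 and 1.16. The part of RNA quality in the difference between the numbers was not tested.

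Probe sets of the same gene did not always move together between the numbers. LAMP1 had 4 remaining probe sets. At 1 of them the intensities were 177, 206 and 205 on the arrays numbered 2 and 422, 451 and 340 on those numbered 1, in the order hIMP1 wt, hIMP1 Dmut and mock. There LAMP1 differed by -1.0 ± 0.14 (adjusted p = 0.00436, limma), while its brightest probe set differed by 0.04. LAMP2 was higher by 0.62 ± 0.15 at 1 of its dimmer probe sets (adjusted p = 0.0387) and differed by -0.20 at its brightest. ATP6V1A differed by -0.48 ± 0.13 at its dimmer probe set (adjusted p = 0.0486), against 0.001 at the brighter one. The probe sets of a gene may read different parts or forms of its transcript, which the files do not describe. HEXA differed by -0.43 and -0.27 at its 2 dimmer probe sets and TPP1 by 0.37 and -0.11 at its others, and none of these passed. GLA, LIPA and NPC2 had no other remaining probe set. Of the 19 genes with more than 1 remaining probe set, 15 had at least 1 whose difference had the opposite sign to the brightest. In the comparisons of hIMP1 wt with mock, hIMP1 Dmut with mock and hIMP1 wt with hIMP1 Dmut this held for 12, 13 and 14 of the 19. A dim probe set of ATP6V0E1 gave the largest change of the 78 with hIMP1 Dmut, 1.2 ± 0.50, where the brightest gave 0.01. It was also the only 1 of the 78 member probe sets below an unadjusted threshold of 0.05 in that comparison, against 1.42% of all probe sets.

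At their brightest remaining probe sets, most V-ATPase genes had their low point on a single array. On the hIMP1 Dmut array numbered 2, 10 of the 15 (66.7%) had their lowest value of the 6 arrays, against 16.3% of all genes, and the median distance of their log2 values from the gene means was -0.19. On the 5 other arrays that median lay between -0.00037 and 0.06. For the V0 sector alone the median on that array was -0.29. Other remaining probe sets of the 10 genes did not all follow. None of those of ATP6V0A1, ATP6V0C and ATP6V1C1 was lowest on that array. ATP6V0C had 778 there at its other probe set, against 668 on the mock array numbered 1. Those of ATP6V0A2 and ATP6V1D were lowest there only in part. With that array left out, the median V-ATPase change with hIMP1 Dmut against mock was -0.04. It was -0.25 without the hIMP1 Dmut array numbered 1, and -0.10 with all 6 arrays. The soluble proteins were not low there, with a median of 0.08 above their means. That array also had the highest median intensity, 33.7, and a summed intensity of 257 over the blood markers (4 of 9 with a probe set, of which 3 passed the filter), against 158 on the other hIMP1 Dmut array, 120 to 224 with hIMP1 wt and 134 to 241 in mock, with 0 blood markers at an intensity of 0. The fibroblast markers summed to 342 on that array, against 196 to 296 on the others, and the kidney epithelial markers to 8570, against 8905 to 9927. The members of these lists did not move together. In the kidney list VIM (5279), KRT8 and KRT18 were lowest on that array. PAX8 (287), CDH2 (972) and the dim PAX2 were highest there, and the others lay in between. In the fibroblast list COL1A1 was 165 there and 166 on the hIMP1 wt array numbered 1. The part of these markers in the low pump genes was not tested.

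Further genes of the pathway were taken from lists written from general knowledge of lysosome biology, with 0 genes passing in any of the 3 comparisons of groups. In the hydrolase list, 28 of 38 further genes were measured above the filter. With hIMP1 wt, 5 were above mock and 23 below it, with a median of -0.06, and with hIMP1 Dmut 11 were above and 17 below, with a median of -0.08. Of all genes 46.5% were above mock with hIMP1 wt and 48.7% with hIMP1 Dmut. Counts of the further lists were not repeated with other scalings or with an array left out. ARSB, the arylsulfatase of dermatan sulfate, changed by 0.46 ± 0.29 with hIMP1 wt and 0.40 ± 0.29 with hIMP1 Dmut, MANBA, the beta-mannosidase, by -0.43 ± 0.30 with hIMP1 wt, and NAGLU, of heparan sulfate breakdown, by -0.66 ± 0.28 with hIMP1 Dmut. Between hIMP1 wt and hIMP1 Dmut the largest statistics were those of CTSO (-0.49 ± 0.33) and GALNS (-0.50 ± 0.35).

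The V-ATPase isoforms and assembly factors, 9 of 17 measured, had 4 above mock with hIMP1 wt and 6 with hIMP1 Dmut. WDR7, a binding partner of the pump, changed by 0.19 ± 0.22 and 0.41 ± 0.22, and ROGDI by -0.19 ± 0.26 and -0.36 ± 0.26. Between the constructs ATP6V1E2 differed by -0.30 ± 0.29. Further membrane proteins (18 of 20 measured) had 9 above mock with hIMP1 wt and 6 with hIMP1 Dmut. TPCN2, a channel of endolysosomes, changed by -0.68 ± 0.33 with hIMP1 wt and differed by -0.65 ± 0.33 between the constructs. SPNS1 changed by 0.34 ± 0.22 with hIMP1 wt, and SIDT2 by -0.32 ± 0.21 and CLN3 by 0.36 ± 0.25 with hIMP1 Dmut. CLN3 differed by -0.52 ± 0.25 between the constructs.

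Genes that sort cargo to the lysosome (25 of 26 measured) had 15 above mock with hIMP1 wt and 9 with hIMP1 Dmut. AP1G1 and VPS11 changed by 0.29 ± 0.21 and 0.26 ± 0.21 with hIMP1 wt, and AP1S1 and AP3D1, both subunits of clathrin adaptors, by 0.40 ± 0.21 and -0.31 ± 0.18 with hIMP1 Dmut. AP1S1 and VPS11 also led the comparison of the constructs, at -0.42 ± 0.21 and 0.33 ± 0.21. In the list of TFEB relatives and nutrient sensing (18 of 20 measured), 6 were above mock with hIMP1 wt and 4 with hIMP1 Dmut. MTOR, the kinase that keeps TFEB in the cytoplasm, changed by -0.37 ± 0.30 with hIMP1 wt and differed by -0.45 ± 0.30 between the constructs, and RRAGB by 0.40 ± 0.34 and 0.45 ± 0.34. With hIMP1 Dmut, YWHAB changed by -0.20 ± 0.17 and LAMTOR4 by -0.26 ± 0.24. All 25 autophagy genes were measured, with 13 above mock with either construct. ATG16L1 and ATG14 changed by -0.67 ± 0.32 and 0.42 ± 0.24 with hIMP1 wt, and ATG14 and WIPI1 by 0.49 ± 0.24 and 0.62 ± 0.31 with hIMP1 Dmut. Between the constructs WIPI1 differed by -0.65 ± 0.31 and ATG16L1 by -0.47 ± 0.32.

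Between the array numbers, 6 of the 123 measured genes of these lists passed (4.88%), which is near the 6.19% of all genes. In the hydrolase list 20 of 28 were higher on the arrays numbered 2, against 52.2% of all genes, and 2 passed: CTSH, an aminopeptidase, at 0.66 ± 0.13 (adjusted p = 0.0169, limma), and GM2A, the activator that serves beta-hexosaminidase, at 0.54 ± 0.14 (adjusted p = 0.0458). CTSH averaged 421 on the arrays numbered 2 and 263 on those numbered 1, and GM2A 411 and 277. Of the pump's isoforms ATP6V0E2 passed (0.50 ± 0.14, adjusted p = 0.0496), while DMXL2 did not (0.28 ± 0.14). The sorting list held AP1S2 (0.61 ± 0.11, adjusted p = 0.0131) and AP3S1 (0.51 ± 0.11, adjusted p = 0.025), both small subunits of adaptor complexes. Of the autophagy genes 19 of 25 were lower on the arrays numbered 2, against 47.8% of all genes. SQSTM1, the p62 receptor that is itself degraded by autophagy, differed by -0.80 ± 0.12 (adjusted p = 0.00462), at 460 on the arrays numbered 2 and 806 on those numbered 1. GABARAPL1 (-0.53 ± 0.16), TFE3 (-0.50 ± 0.14) and FLCN (-0.61 ± 0.18) did not pass, with adjusted p-values between 0.0645 and 0.0708. LAPTM4B (0.27 ± 0.12) and OSTM1 (-0.33 ± 0.15) had the largest statistics among the further membrane proteins, without passing.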

How the data were processed

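Total RNA of 6 samples (2 each of hIMP1 wt, hIMP1 Dmut and mock) was read on 1-colour arrays. The authors deposited 1 intensity per probe set and array, on a linear scale. The software behind it, its background correction and genome build: not given in the sources used here. The trimmed mean, with 2% off each end, was 150.02 on every array, as a single scaling factor per array would give. The number of arrays limits the precision.

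From these, log2(intensity + 9.05, the pooled lower quartile) was taken without further scaling, 62 control probe sets were left out, and probe sets at or above the median mean log2 value (5.19) were kept. All 6 arrays entered 1 limma fit (limma 3.58.1, R 4.3.3, lmFit and eBayes with an intensity trend) with a coefficient per group, 3 residual and 7.03 prior degrees of freedom. A second fit had group and array number, with 2 residual degrees of freedom. Two-sided p-values were adjusted by Benjamini-Hochberg over all kept probe sets. Fits were tested on simulated data. Errors of changes are standard errors.

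Groups came from sample descriptions and numbers from titles. Symbols came from the platform's annotation, with 41091 probe sets of 1 symbol, and all 40 members were in the RefSeq gene table. The members and lists were chosen with earlier results of these data known. Per-array values were given for the 4 members with the largest moderated statistic in each comparison and for TFEB, LAMP1, CTSD, ATP6V0D1 and ATP6V1A, and 2 genes of each further list were named in each comparison. HEXA and TPP1 were added because they passed, and further non-overlapping members were named after their values were seen. Markers of kidney epithelium, macrophages, fibroblasts and blood were summed over 1 probe set a gene, dim ones included. The alternatives were other scalings, offsets, filters and priors, each array left out, the number as a replicate block, a fit of the 4 arrays compared, the mean of a gene's probe sets and a shorter motif.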

Additional observations from a re-analysis of the deposited data

Results flagged for a closer look

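For 3 genes the difference between the arrays numbered 2 and 1 ran in opposite directions in 2 groups, by at least 0.3 on the log2 scale in each. LAMP2, a protein of the lysosomal membrane, differed by 0.36 within hIMP1 Dmut and by -0.74 within mock. CTSA, the protective protein of beta-galactosidase, differed by -0.50 within hIMP1 Dmut and by 0.37 within mock. TFEB, the transcription factor, differed by 0.34 within hIMP1 Dmut and by -0.68 within mock. Each value is the difference of 2 arrays, and the difference between the groups was not tested.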

How the results depend on the processing

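Member probe sets that passed in the 3 comparisons of groups numbered 0 under every alternative run, including the replicate block. The labels do not say that the numbers in the titles pair samples, and deviations of same-numbered arrays correlated at 0.22 between hIMP1 wt and hIMP1 Dmut, 0.46 between hIMP1 wt and mock and 0.20 between hIMP1 Dmut and mock. The members' median change with hIMP1 wt, -0.01, was 0.032 with median scaling and 0.013 with a gene's remaining probe sets averaged, and lay between -0.060 and 0.049 with an array left out. With hIMP1 Dmut, where it was -0.09, median scaling gave -0.15 and leaving out an array -0.18 to -0.01. The median of hIMP1 wt minus hIMP1 Dmut, 0.05, was 0.15 with median scaling and between 0.022 and 0.15 with an array left out. Between the array numbers the median, 0.04, was 0.12 with median scaling. There 9 member probe sets passed, against 5 with no filter, 0 without an intensity trend and between 2 and 20 with an array left out. Over all probe sets 1558 passed, against 558 with no filter, 0 without the trend and between 291 and 5472 with an array left out. Median scaling gave 66.8% of them higher, against 49.2%. With no filter more probe sets are tested, and with an array left out there are fewer samples. Without either hIMP1 Dmut array the count rose, to 5472 and 5455, and without any other array it fell. The cause was not tested for any setting. For the members given by array, 26 of 164 values between the numbers lost their call. Signs changed for 12 values that had no call, of TFEB, LAMP1 and ATP6V1A. With hIMP1 wt, with hIMP1 Dmut and between the constructs 11 of 152, 11 of 151 and 8 of 150 values changed sign, with 0 calls.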

Other observations

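The summed intensity of the kidney epithelial markers was 9183 and 9469 with hIMP1 wt, 8570 and 9425 with hIMP1 Dmut, and 8905 and 9927 in mock. The 9 fibroblast markers, 7 of them dim enough to be left out of the tests, summed together to 224 and 289 with hIMP1 wt, 287 and 342 with hIMP1 Dmut, and 196 and 296 in mock. Both sums overlapped between the 3 groups.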
